A study of Mus musculus with 8 samples.

Results

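The genes described here encode the structural and cell-binding proteins of the extracellular matrix and the enzymes that cut them: collagens, laminins, integrins, matrix metalloproteases and the tissue inhibitors of metalloproteases. They were taken by name, as every probe set with 1 gene symbol starting with Col, Lam (alpha, beta or gamma chains), Mmp or Timp and a number, or with Itga or Itgb, and each gene was represented by its probe set with the highest mean signal over all arrays. This gave 76 genes, measured by 114 probe sets, of 8251 named genes in all: 31 collagens, 9 laminins, 12 genes starting with Itga, 8 with Itgb, 13 Mmp genes and 3 Timp genes. Members were thus chosen by symbol and, among probe sets of a gene, selected on mean signal; the difference between the groups was not used. The symbol rule also took Itgb1bp1, which encodes a cytoplasmic protein that binds an integrin tail and is no integrin itself, and Itgb2l, an integrin beta2-like gene.

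All samples were visual cortex of wild-type C57Bl6 mice taken at postnatal day 24. An eye had been removed at postnatal day 20, 4 days earlier. Cortex contralateral to the lost eye (deprived) was hybridised to 4 arrays and ipsilateral cortex (non-deprived) to another 4, with replicates numbered 1 to 4 in both. Both groups came from operated mice, with no cortex of unoperated mice among the samples. The labels name 4 operated mice and the design text speaks of pooled material, so an array may hold 1 animal or several, and p-values measure only how these samples vary, in part perhaps technically.

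Matrix of the mature brain is unusual in holding little fibrillar collagen outside the meninges and vessel walls. Basement membranes around capillaries and under the pial surface are built from networks of type IV collagen and laminin trimers, and integrins, pairs of an alpha and a beta chain, link these networks to the cytoskeleton. Matrix metalloproteases cut matrix and cell-surface proteins and are held in check by Timp proteins, and such cutting has been linked to plasticity of visual cortex.

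Values are linear signals per probe set, and differences are of log2(signal + 15.3), deprived minus non-deprived, a scale that understates changes of dim genes. The median signal per array was 183 to 209. Neuronal markers were strong on every array, with 7 of 7 on the array above the filter on dim probe sets, and 0 of 4 choroid plexus markers passed that filter. The filter kept 7453 of 12422 probe sets by their mean over all arrays and corresponds to a signal of about 110. In whole-tissue RNA a change in the number of cells of a type and a change in RNA per cell cannot be told apart.

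Of the 76 genes, 36 passed the filter: 17 collagens, 6 laminins, 4 Itga and 4 Itgb genes, 2 Mmp genes and all 3 Timp genes. None of them passed the test between hemispheres after adjustment over all kept probe sets. Limma called 0 of 36 at an adjusted p under 0.05 in either direction (0% higher and 0% lower over all 7453), and 0 with the replicate number as a block (0% over all). At an unadjusted p under 0.05 there were 3 of 36 higher in deprived cortex, against 1.45% of all kept probe sets, and 0 of 36 lower, against 1.22%. The 3 were Col7a1, Col9a2 and Itgb7. Col7a1 passed the filter through its deprived values, so its part in the count is no support. With the replicate number as a block 6 of 36 were higher at an unadjusted p under 0.05, against 3.38% of all kept probe sets, and 0 lower, against 3.65%. The added ones were Col18a1, Col5a1 and Lama5.

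These counts rest on single arrays and on the scaling. The number higher at an unadjusted p under 0.05 was 0 without deprived replicate 3 and 1 without non-deprived replicate 1, deprived replicate 1 or deprived replicate 2. It was 2 without non-deprived replicate 3 or 4, 1 after quantile scaling or cyclic loess scaling, and 0 when the Gapdh probe ratio was a covariate. No share over all kept probe sets is given for these settings.

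The kept genes leaned to higher values in deprived cortex. Their median log2 difference was 0.17, against 0.02 over all kept probe sets, with 24 above 0 and 12 below (66.7% above 0, against 54.9% over all). Col7a1 and Col12a1 had non-deprived means under the filter (6.55 and 6.94 on the log2 scale) and passed through their deprived values. Their part in these counts is no support. Medians of the families were 0.16 for 17 collagens, 0.21 for 6 laminins, 0.24 for 4 Itga genes, 0.08 for 4 Itgb genes, 0.11 for 2 Mmp genes and 0.24 for 3 Timp genes. The 4 Itgb genes were Itgb5 (-0.21), Itgb1 (-0.01), Itgb1bp1 (0.17) and Itgb7 (0.47), and Itgb1bp1 is no integrin itself. Dimmer kept probe sets of Itgb1bp1 had -0.17 and 0.10. The families are small and share the same arrays, and differences between their medians were not tested. All 4 deprived arrays lay above all 4 non-deprived arrays for 3 of 36 genes, Col18a1, Col26a1 and Lamb2, against 1.23% of all kept probe sets, and below them for 0, against 0.805%. After quantile or cyclic loess scaling 0 genes had separate groups. With deprived replicate 1 left out the number with deprived above was 6, and without deprived replicate 4 it was 7. Leaving out an array can only keep or raise this number, and no share over all is given for these settings. Pairing samples by number, 9 of 36 genes were higher on the deprived side in 4 of 4 pairs, against 8.95% over all, and 0 were lower in 4 of 4, against 6.92%.

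**Figure D1:**
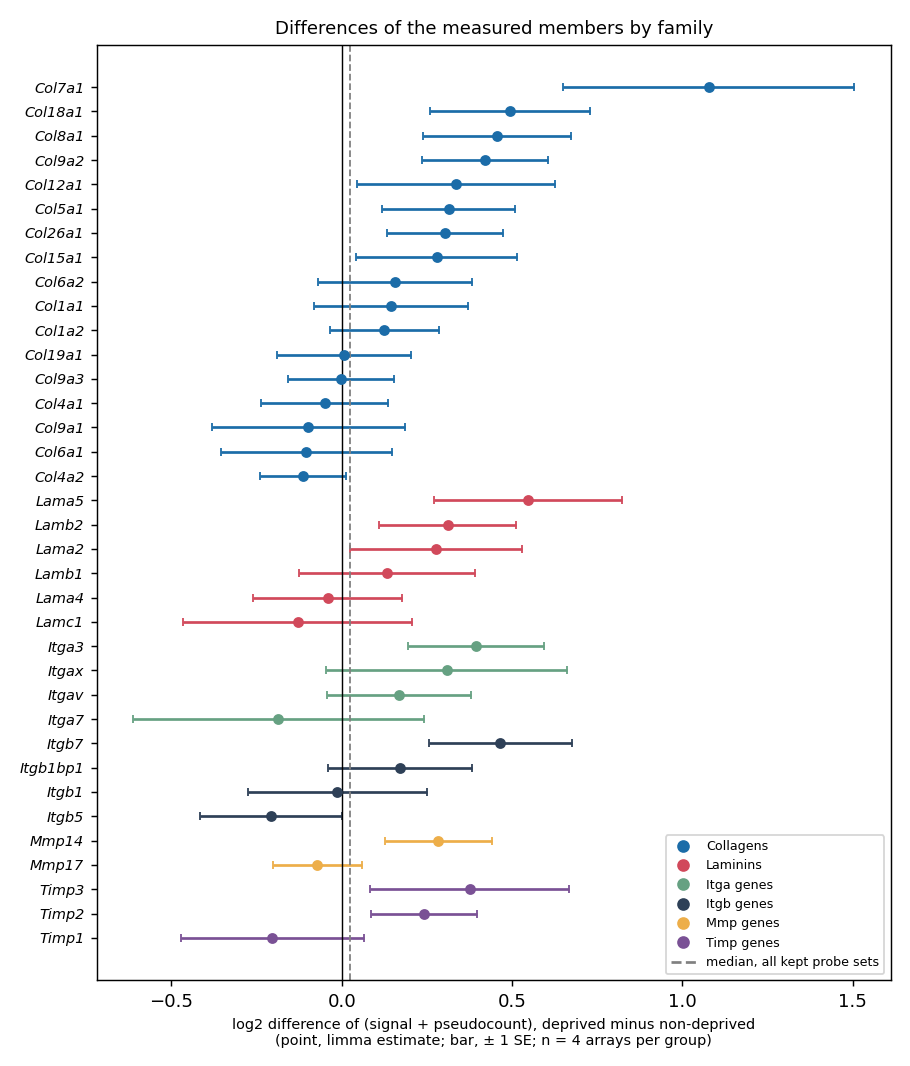
Log2 difference (deprived minus non-deprived) of the 36 kept genes, coloured by family; points are limma estimates, bars ± 1 SE, n = 4 arrays per group, and the dashed line is the median of all kept probe sets (0.02). Values run from -0.21 for Itgb5 to 1.08 for Col7a1, with 24 above 0 and 12 below.

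Higher values in deprived arrays were common among dim probe sets in general. Non-deprived arrays had a 10th percentile of 13.5 ± 0.718, deprived arrays one of 17.2 ± 2.68 (SD, n = 4; two-sided exact permutation test, p = 0.0286, the smallest that 70 assignments allow). Among the 4969 probe sets below the filter 69.8% lay above 0, with a median of 0.17, and among the 40 genes below it 28 did (70.0%), with a median of 0.21. Split into 5 equal classes by signal, all probe sets had medians of 0.19, 0.14, 0.07, 0.03 and -0.02 from the dimmest to the brightest. The genes described here had 0.17, 0.27, 0.31, 0.00 and 0.12 in the same classes. The gap was widest in the middle class, at signals of 110 to 308, where 14 of 17 genes lay above 0, against 62.9% of all probe sets. Among the 14 are Col7a1 and Col12a1, which reached this class through their deprived values. With quantile scaling, which gives all arrays one distribution, the median of the 36 was 0.18. With a filter at the 60th percentile, which leaves the 19 genes of the 2 brightest classes, it was 0.01. The part of the shift among dim probe sets in the values of these genes was not tested.

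**Figure D2:**
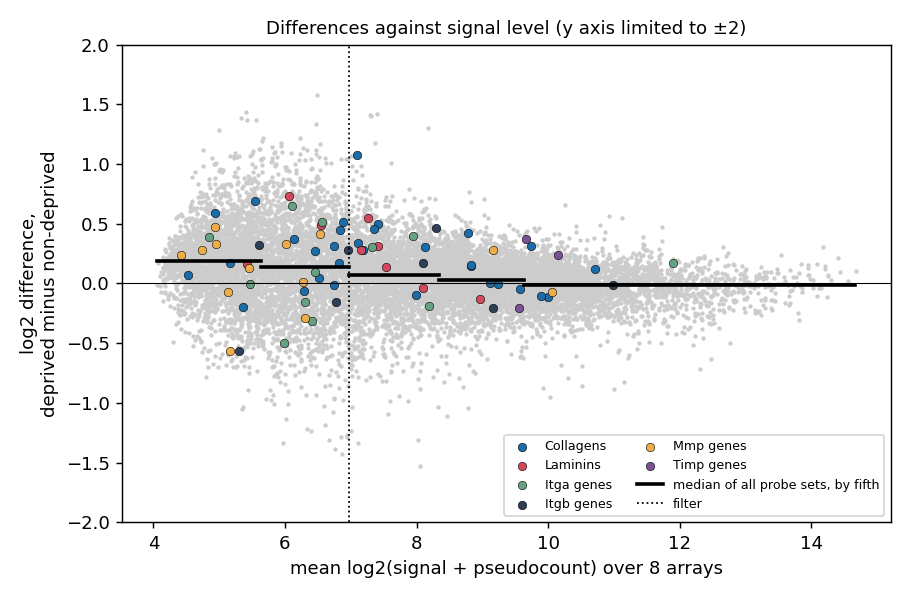
Log2 difference against mean log2(signal + 15.3) over 8 arrays for all probe sets (grey) and for the 76 genes (coloured by family); black bars are medians of all probe sets in 5 equal classes of signal and the dotted line is the filter. The medians decline from 0.19 in the dimmest to -0.02 in the brightest class, and most coloured points between signals of 110 and 308 lie above the bar.

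Arrays differed in how often they held the extreme value. Deprived replicate 3 was the highest of 8 arrays for 10 of the 36 genes (27.8%, against 18.5% of all kept probe sets) and the lowest for 0 (against 12.7%). Non-deprived replicates 1 and 4 were the highest for 1 gene each. The median of the 36 was 0.14 without deprived replicate 3 and 0.25 without deprived replicate 1, and between these when any other array was left out.

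**Figure D3:**
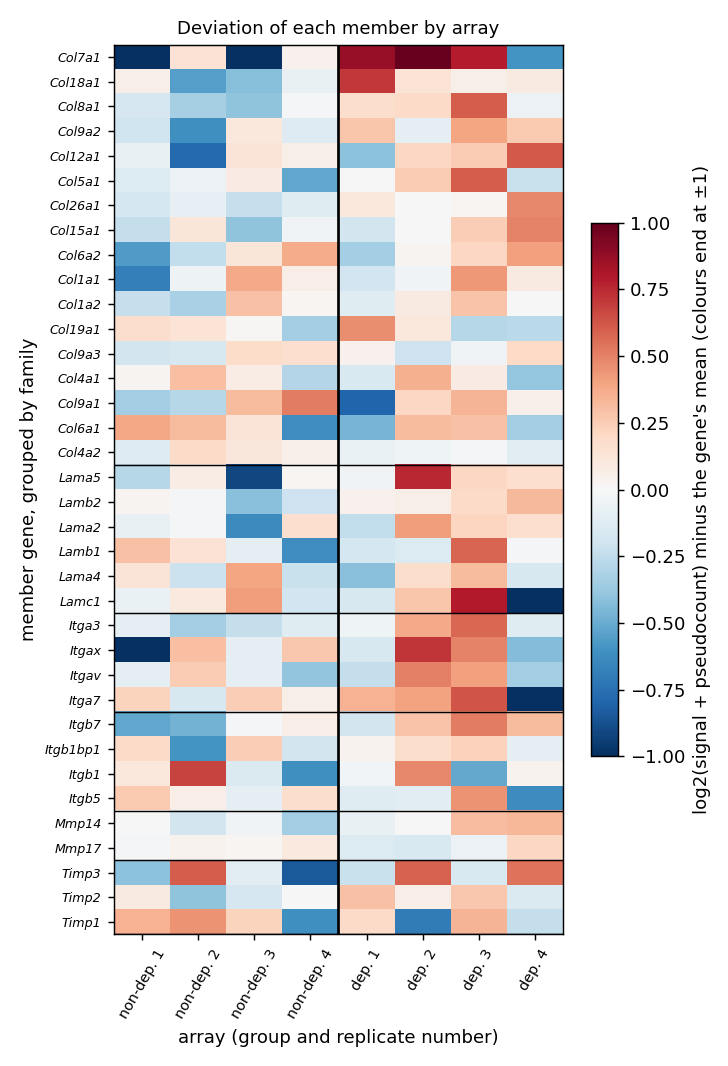
Deviation of each of the 36 kept genes from its own mean on each array, in log2(signal + 15.3), with arrays in columns by group and replicate and genes in rows by family (colours end at ±1). Deprived replicate 3 holds the highest value for 10 genes, and lies above the gene's mean for all 6 laminins, while in no family are all 4 deprived arrays above the mean for every gene.

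Fibrillar collagens form the cable-like fibres of connective tissue, here that of meninges and larger vessels, and 3 of 8 passed the filter. Col1a1, 1 of the chains of type I collagen, had signals of 267, 424, 576 and 462 in non-deprived replicates 1 to 4 and 383, 429, 598 and 468 in deprived replicates 1 to 4. Its partner chain Col1a2 had 1404, 1319, 2027 and 1675 (non-deprived) and 1518, 1759, 2021 and 1653 (deprived, both in replicate order). In both, replicate 3 was the highest array of its group, and the groups overlapped. The log2 difference was 0.15 ± 0.23 (SE; limma unadjusted p = 0.535, adjusted p = 0.995) for Col1a1 and 0.12 ± 0.16 (SE; limma unadjusted p = 0.452, adjusted p = 0.995) for Col1a2. Without non-deprived replicate 1, the lowest array for Col1a1, its difference was -0.06, and with the Gapdh ratio as a covariate that of Col1a2 was -0.06. Dimmer kept probe sets of Col1a1 and Col1a2 had 0.19 and 0.39.

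Col5a1, which sets the diameter of type I fibres, had signals of 757, 804, 887 and 580.0 in non-deprived replicates 1 to 4 and 834, 999, 1279 and 713 in deprived replicates 1 to 4. All 4 pairs had the deprived sample higher, although the groups overlapped. Its difference was 0.31 ± 0.20 (SE; limma unadjusted p = 0.137, adjusted p = 0.995), and unadjusted p = 0.0215 in limma with the replicate block (adjusted p = 0.703). A dimmer kept probe set of Col5a1 had 0.28 and was higher in 4 of 4 pairs. Col3a1, the type III chain of elastic vessel walls, was below the filter, at 83.6, 89.6, 112 and 82.7 (non-deprived) and 86.3, 75.2, 122 and 149 (deprived, both in replicate order). Its difference was 0.17. Dimmer probe sets of Col3a1 had 0.74 and 0.37, each higher in 4 of 4 pairs. The other fibrillar chains were dim as well, and their differences were 0.05 for the cartilage collagen Col2a1, 0.44 for Col5a2, 0.52 for Col11a1 and 0.27 for Col11a2. All 8 fibrillar chains thus lay above 0, 5 of them at signals where 69.8% of all probe sets did.

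Type IV collagen is the sheet-forming collagen of every basement membrane, and its main trimer is made of Col4a1 and Col4a2 chains. Col4a1 had signals of 755, 914, 779 and 602 in non-deprived replicates 1 to 4 and 667, 952, 785 and 564 in deprived replicates 1 to 4. Col4a2 had 915, 1149.6, 1087 and 1041 (non-deprived) and 959, 974, 993 and 932 (deprived, both in replicate order). The deprived values of Col4a2 lay inside the non-deprived range, those of Col4a1 spread a little wider than it, and the differences were -0.05 ± 0.19 (SE; limma unadjusted p = 0.793, adjusted p = 0.995) and -0.11 ± 0.13 (SE; limma unadjusted p = 0.39, adjusted p = 0.995). The SE of Col4a2 was the smallest of the 36 genes. Leaving out 1 array moved Col4a1 above 0, to 0.04 for non-deprived replicate 2 or 0.07 for deprived replicate 4. The chains Col4a3, Col4a4 and Col4a5, known from kidney basement membrane, were below the filter, with differences of 0.59, 0.17 and -0.20.

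Col15a1 and Col18a1 encode collagens that sit at the outer face of basement membranes, and a fragment of the latter is endostatin. Col18a1 had signals of 162, 101, 112 and 147 in non-deprived replicates 1 to 4 and 263, 172, 162 and 166 in deprived replicates 1 to 4. The groups did not overlap, but the gap was that between 162.0 in non-deprived replicate 1 and 162.2 in deprived replicate 3, and deprived replicate 1 stood far above its group. Its difference was 0.49 ± 0.24 (SE; limma unadjusted p = 0.0573, adjusted p = 0.995), with unadjusted p = 0.0369 in limma with the replicate block (adjusted p = 0.703), and 0.34 without deprived replicate 1. The 4 dimmer probe sets of Col18a1 were below the filter and had 0.10 to 0.29. Col15a1 had 0.28 ± 0.24 (SE; limma unadjusted p = 0.26, adjusted p = 0.995).

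The FACIT collagens decorate the surface of fibres, and type IX collagen is a trimer of Col9a1, Col9a2 and Col9a3. Of these 3 chains 1 had an unadjusted p under 0.05. Col9a2 had signals of 369, 272, 458 and 389 in non-deprived replicates 1 to 4 and 519, 399, 564 and 513 in deprived replicates 1 to 4. All 4 pairs had the deprived sample higher, by 0.29 to 0.52, while the groups overlapped through deprived replicate 2 and non-deprived replicate 3. Its mean was 372 ± 76.8 (non-deprived) and 499 ± 70.5 (deprived; SD, n = 4), with a difference of 0.42 ± 0.19 (SE; limma unadjusted p = 0.043, adjusted p = 0.995). With the replicate block limma gave an unadjusted p = 0.00896 and adjusted p = 0.703. Col9a1 and Col9a3 had -0.10 ± 0.28 (SE; limma unadjusted p = 0.736, adjusted p = 0.995) and -0.0012 ± 0.16 (SE; limma unadjusted p = 0.994, adjusted p = 0.999), each higher in 2 of 4 pairs. A dimmer probe set of Col9a3, below the filter, had 0.69. Whether the 3 chains differ from each other was not tested. Of the other FACIT chains Col12a1 had 0.33 and Col19a1, noted for expression in cortical interneurons, 0.01.

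Col7a1, which makes the anchoring fibrils of skin, had the largest difference of the 36 genes. Its signals were 41.6, 135, 49 and 125 in non-deprived replicates 1 to 4 and 233, 277, 219 and 74.5 in deprived replicates 1 to 4. Deprived replicates 1 to 3 stood above all non-deprived arrays, and deprived replicate 4 lay among them. The mean was 87.6 ± 49.1 (non-deprived) and 201 ± 87.7 (deprived; SD, n = 4), so that the non-deprived mean was under the filter signal of about 110 and the gene passed through its deprived values. Its difference was 1.08 ± 0.43 (SE; limma unadjusted p = 0.0274, adjusted p = 0.995), higher in 3 of 4 pairs, and 1.46 without deprived replicate 4. With these non-deprived values the gene had to be higher in deprived cortex to pass, so its place among the kept genes is no support. It was the first gene inside the filter by mean log2 value (mean signal 144), followed by Col12a1 (128) and Lama2 (130.3). Of these Col12a1 too had a non-deprived mean under the filter on the log2 scale and passed through its deprived values. The nearest outside were Itgb2l (113), Col11a1 (105) and Col5a2 (105), with differences of 0.28, 0.52 and 0.44.

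**Figure D4:**
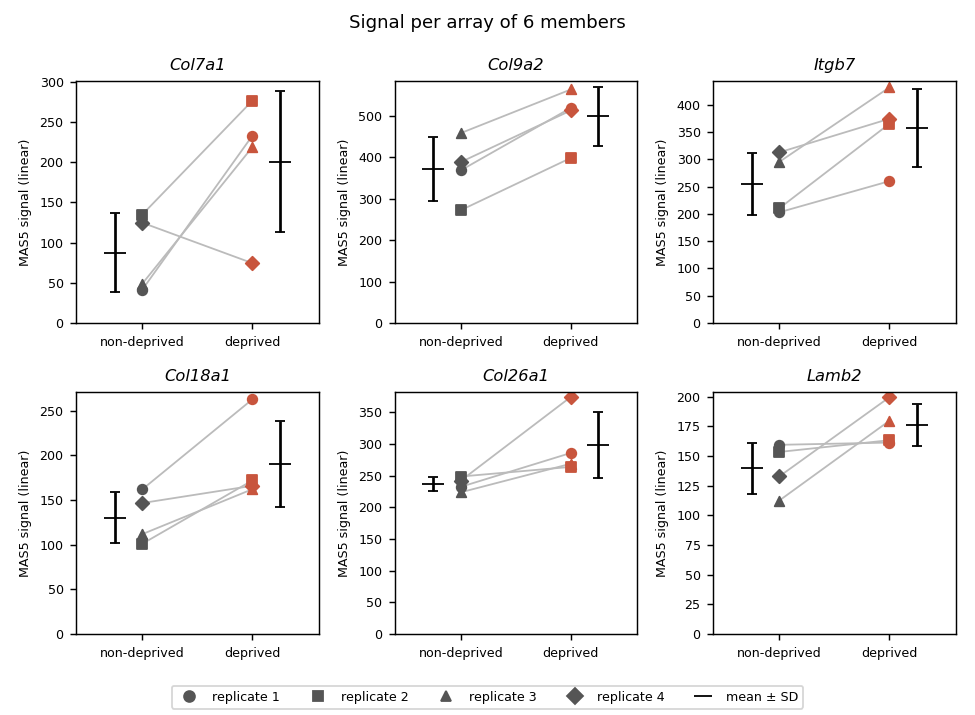
Linear signal per array of Col7a1, Col9a2 and Itgb7 (unadjusted p under 0.05) and of Col18a1, Col26a1 and Lamb2 (groups without overlap); grey lines join samples of the same replicate number, and bars are mean ± SD, n = 4. Deprived replicate 4 of Col7a1 (74.5) and deprived replicate 1 of Col18a1 (263) stand apart from their groups.

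Col26a1, a small secreted collagen, had signals of 232, 249, 224 and 242 in non-deprived replicates 1 to 4 and 286, 264, 269 and 374 in deprived replicates 1 to 4. The non-deprived arrays lay close together and all deprived arrays above them, the highest being replicate 4. Its difference was 0.30 ± 0.17 (SE; limma unadjusted p = 0.102, adjusted p = 0.995), and 0.19 without deprived replicate 4. Col8a1, a network-forming collagen of vessel walls, had 0.46 ± 0.22 (SE; limma unadjusted p = 0.0589, adjusted p = 0.995), higher in 3 of 4 pairs. The beaded-filament chains of type VI collagen, which fibroblasts and mural cells make, had -0.10 for Col6a1 and 0.16 for Col6a2. A dimmer probe set of Col6a1, below the filter, had -0.77 and was lower in 4 of 4 pairs. Col6a2 was higher in 4 of 4 pairs, by 0.04 to 0.27, while its non-deprived arrays alone ranged from 291 to 571.

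Below the filter, Col17a1, a transmembrane collagen of skin, had all 4 deprived arrays (36.2 to 51.0) above all 4 non-deprived arrays (15.2 to 26.6), with a difference of 0.69. These signals lie where 75.0% of probe sets were above 0 (the dimmest class, up to 34.2) or 64.7% (the next, up to 110), and the gene was not tested. The remaining dim collagens, Col10a1, Col13a1, Col14a1, Col22a1 and Col6a3, had differences from -0.06 to 0.38.

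Laminins are trimers of 1 alpha, 1 beta and 1 gamma chain that form the inner sheet of basement membranes and bind integrins. Among the alpha chains Lama4 and Lama5 are those of vessels and Lama2 that of pericytes, astrocyte endfeet and muscle. Lama5 had signals of 111, 147, 66.6 and 140.4 in non-deprived replicates 1 to 4 and 135, 243, 162 and 157 in deprived replicates 1 to 4. It was higher in 4 of 4 pairs but the groups overlapped, with non-deprived replicate 3 lowest and deprived replicate 2 highest. Its difference was 0.55 ± 0.28 (SE; limma unadjusted p = 0.0715, adjusted p = 0.995), with unadjusted p = 0.0465 in limma with the replicate block (adjusted p = 0.703). A dimmer probe set of Lama5, below the filter, had -0.07. Lama2 had 0.28 and Lama4 -0.04, so the vessel chains Lama4 and Lama5 lay on opposite sides of 0, a difference that was not tested. A dimmer probe set of Lama4, below the filter, had 0.65.

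Lamb2, the beta2 chain of mature vessel and synaptic laminins, had signals of 159, 153, 112 and 133 in non-deprived replicates 1 to 4 and 161, 163, 179.7 and 199 in deprived replicates 1 to 4. All deprived arrays were above all non-deprived ones, with 159.4 in non-deprived replicate 1 next to 161 in deprived replicate 1. Its difference was 0.31 ± 0.20 (SE; limma unadjusted p = 0.148, adjusted p = 0.995). The beta1 chain Lamb1 had 211, 189.7, 159 and 105 (non-deprived) and 149, 153, 262 and 168 (deprived, both in replicate order). Its groups overlapped, with 0.13 ± 0.26 (SE; limma unadjusted p = 0.614, adjusted p = 0.995), and below 0 with 1 array left out, -0.05 for non-deprived replicate 4 or -0.04 for deprived replicate 3. A dimmer probe set of Lamb1, below the filter, had 0.30.

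Lamc1, the gamma chain shared by most laminins, had signals of 460.2, 519.7, 650.4 and 422 in non-deprived replicates 1 to 4 and 432, 588, 849 and 207 in deprived replicates 1 to 4. Deprived arrays held both the highest value, replicate 3, and the lowest, replicate 4. Its difference was -0.13 ± 0.34 (SE; limma unadjusted p = 0.707, adjusted p = 0.995), and 0.24 without deprived replicate 4. A dimmer probe set of Lamc1, below the filter, had 0.07. Lama1, Lama3 and Lamb3 were below the filter, at 0.49, 0.73 and 0.16.

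Most integrins that bind laminin or collagen share the beta1 chain Itgb1. It had signals of 2152, 3219.5, 1814 and 1305 in non-deprived replicates 1 to 4 and 1971, 2799, 1401 and 2049 in deprived replicates 1 to 4. Non-deprived replicates 2 and 4 were the highest and lowest of all arrays, and the difference was -0.01 ± 0.26 (SE; limma unadjusted p = 0.962, adjusted p = 0.995). The sign of this value changed in 7 of 21 alternative settings, which ran from -0.23 to 0.21, and a dimmer probe set had 0.02.

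Of the laminin-binding alpha chains, Itga3 had signals of 216, 179, 194 and 211 in non-deprived replicates 1 to 4 and 224, 305, 352 and 211 in deprived replicates 1 to 4. Deprived replicates 1 to 3 stood above every non-deprived array, replicate 1 only just, and deprived replicate 4 lay among them. Its difference was 0.39 ± 0.20 (SE; limma unadjusted p = 0.0737, adjusted p = 0.995). A dimmer kept probe set had 0.23. Itga7 had -0.19 ± 0.43 (SE; limma unadjusted p = 0.671, adjusted p = 0.995), where deprived replicate 4, at 71.7, was far below the other deprived arrays at 356 to 435, and another probe set of similar signal had 0.26. Itga6, the main laminin receptor chain of brain endothelium, was dim, at -0.32 and lower in 4 of 4 pairs.

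Itgav, whose heterodimers bind RGD motifs of vitronectin and activate latent TGF-beta, had signals of 3558, 4544, 3555 and 2897 in non-deprived replicates 1 to 4 and 3225, 5398, 5078 and 3008 in deprived replicates 1 to 4. Replicates 1 and 4 were the lower arrays in deprived cortex and replicate 2 was the highest of both groups. Its difference was 0.17 ± 0.21 (SE; limma unadjusted p = 0.439, adjusted p = 0.995), with -0.06 for a dimmer kept probe set and -0.12 when the actin probe ratio was a covariate. Its partner Itgb5 had 671, 582, 522 and 629 (non-deprived) and 509, 515, 764 and 354 (deprived, both in replicate order). Deprived arrays held its highest and its lowest value, with a difference of -0.21 ± 0.21 (SE; limma unadjusted p = 0.341, adjusted p = 0.995), and 0.36 for a dimmer kept probe set, so its probe sets disagree in sign.

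Some integrin chains are leukocyte receptors, with Itgam and Itgb2 forming the complement receptor of microglia. Itgam was below the filter at 84.7, 29, 105 and 45.7 (non-deprived) and 31.4, 34.7, 51.4 and 37.3 (deprived, both in replicate order). Itgb2 was too, at 24.9, 36.4, 48.4 and 11.4 (non-deprived) and 15.3, 53.7, 70.8 and 32.7 (deprived, both in replicate order). Neither gave groups apart, and the differences were -0.50 and 0.33 at signals near background. The microglia markers had 4 of 8 kept genes above 0, a median of 0.04, and a summed signal of 7460 to 8582 in non-deprived and 6779 to 8192 in deprived arrays.

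Itgb7, the beta chain of gut-homing lymphocytes, had signals of 203, 210.1, 295 and 312 in non-deprived replicates 1 to 4 and 259.8, 365, 431 and 374 in deprived replicates 1 to 4. All 4 pairs had the deprived sample higher, by 0.25 to 0.75, and the groups overlapped through deprived replicate 1. The mean was 255 ± 56.7 (non-deprived) and 358 ± 71.5 (deprived; SD, n = 4), and the difference 0.47 ± 0.21 (SE; limma unadjusted p = 0.0461, adjusted p = 0.995). With the replicate block limma gave an unadjusted p = 0.0143 and adjusted p = 0.703. A dim probe set of Itgb7 had 0.03. Its alpha partners Itga4 and Itgae were below the filter at 0.52 and 0.64. Dimmer probe sets of Itga4 had 0.08 and -0.65, so its probe sets disagree in sign, and that of Itgae had 0.72. Leukocyte markers outside microglia passed the filter in 2 of 8 cases, Cd4 and Cd79a, with summed signals of 484.5 to 633 in non-deprived and 401 to 723 in deprived arrays, and their part in the value of Itgb7 was not tested. Itgax, the chain of dendritic cells and some activated microglia, had 59.6, 181.6, 134 and 177 (non-deprived) and 127, 247, 210.2 and 103 (deprived, both in replicate order), with 0.31 ± 0.35 (SE; limma unadjusted p = 0.403, adjusted p = 0.995), and -0.0046 without non-deprived replicate 1, its lowest array.

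Of 13 Mmp genes 2 passed the filter, both anchored to the cell membrane. Mmp14, the membrane protease that activates pro-Mmp2, had signals of 557, 486, 540.3 and 434 in non-deprived replicates 1 to 4 and 527, 556, 692 and 702 in deprived replicates 1 to 4. Deprived replicates 3 and 4 were the highest of all arrays and the groups overlapped, with 0.28 ± 0.16 (SE; limma unadjusted p = 0.0953, adjusted p = 0.995). Mmp17, a membrane protease expressed by neurons, had 1042, 1072, 1063 and 1125 (non-deprived) and 950.0, 942, 1009 and 1211 (deprived, both in replicate order). It was lower in 3 of 4 pairs, with -0.07 ± 0.13 (SE; limma unadjusted p = 0.597, adjusted p = 0.995). The gelatinases, which cut denatured collagen and are studied in visual cortex plasticity, were dim. Mmp2 had 48.2, 59, 101 and 49.4 (non-deprived) and 84.3, 71.2, 95 and 23.6 (deprived, both in replicate order) and a difference of 0.01. A dimmer probe set of Mmp2 had -0.44 and was lower in 4 of 4 pairs. Mmp9 had 27.2, 20.3, 31.6 and 8.50 (non-deprived) and 3.90, 54.4, 24 and 11.1 (deprived, both in replicate order) and a difference of -0.07. Deprived arrays held both the highest (54.4) and the lowest (3.90) value of Mmp9, so at these signals no difference was detectable. A dimmer probe set of Mmp9 had 0.20.

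Many Mmp promoters are textbook targets of AP-1, the dimer of Fos and Jun proteins. Fos had signals of 2425, 3776, 2317 and 2755 on the non-deprived arrays and 1273, 1501, 1669 and 1538 on the deprived arrays. The deprived arrays lay below the others without overlap, with a difference of -0.89 ± 0.17 (SE; limma unadjusted p = 0.000197, adjusted p = 0.995). With the replicate block limma gave an unadjusted p = 7.53e-05 and adjusted p = 0.116. The letters of the consensus AP-1 site, TGAGTCA, were therefore looked for on both strands (the other strand reads TGACTCA) in the 250 bases before the start of transcription, in RefSeq promoters of GRCm38.p6, in which 52 of the 76 genes had an entry. They were found in 5 of 11 Mmp promoter entries (45.5%), 1 of 25 collagen, 1 of 14 integrin, 0 of 6 laminin and 0 of 3 Timp entries, against 4.46% of all 32851 entries. The Mmp genes were Mmp3, Mmp7, Mmp10, Mmp12 and Mmp13, neighbours on chromosome 9, and the others were Col6a1 and Itgax. The 110 bases before the start of the 5 Mmp genes are printed to show where the site lies. Capitals mark the AP-1 letters and, after them, the TATA box letters TATAAA where present.
Mmp3, chr9:7445712-7445821 (plus strand): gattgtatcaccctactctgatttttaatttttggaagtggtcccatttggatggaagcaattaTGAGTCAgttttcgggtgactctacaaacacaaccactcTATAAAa
Mmp10, chr9:7502232-7502341 (plus strand): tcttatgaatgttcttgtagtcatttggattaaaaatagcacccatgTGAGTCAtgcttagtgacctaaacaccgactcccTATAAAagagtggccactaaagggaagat
Mmp12, chr9:7347264-7347373 (plus strand): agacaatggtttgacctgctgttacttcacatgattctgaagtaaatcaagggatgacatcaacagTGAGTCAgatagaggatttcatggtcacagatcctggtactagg
Mmp13, chr9:7272404-7272513 (plus strand): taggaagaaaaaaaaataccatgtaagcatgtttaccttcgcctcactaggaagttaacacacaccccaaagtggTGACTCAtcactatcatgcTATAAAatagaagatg
Mmp7, chr9:7691980-7692089 (plus strand): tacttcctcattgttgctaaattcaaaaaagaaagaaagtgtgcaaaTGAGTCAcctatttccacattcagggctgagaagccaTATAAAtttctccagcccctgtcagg
The site starts 46 bases before the annotated start in Mmp3, 63 in Mmp10, 44 in Mmp12, 35 in Mmp13 and 63 in Mmp7. A match of letters is a description and shows no binding.

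All 5 of these proteases were below the filter, and 4 of 5 lay above 0. Mmp3, stromelysin 1, had signals of 4.80, 40.5, 59.1 and 27.5 in non-deprived replicates 1 to 4 and 18.5, 13.5, 7 and 18.9 in deprived replicates 1 to 4. Non-deprived arrays held its 3 highest values and also its lowest, with a difference of -0.57. Mmp13, a collagenase, had 18.7, 25.8, 35.5 and 28.1 (non-deprived) and 40.5, 12.3, 46.1 and 31.2 (deprived, both in replicate order), with 0.13, and Mmp12, macrophage elastase, 35.6, 72.1, 25.5 and 45.5 (non-deprived) and 55.7, 92.7, 98.6 and 16.3 (deprived, both in replicate order), with 0.33. Both have overlapping groups. A dimmer probe set of Mmp12 had 0.52 and was higher in 4 of 4 pairs. Mmp7, matrilysin, was higher in 4 of 4 pairs at signals of 8 to 30.9, with 0.47, and Mmp10 had 0.24 at signals of 2.70 to 10.9. Mmp8, the neutrophil collagenase, had all 4 deprived arrays (17.1 to 22.8) above all 4 non-deprived arrays (7.60 to 16.7), with 0.33, and was not tested. At such signals the median over all probe sets was 0.19.

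**Figure D5:**
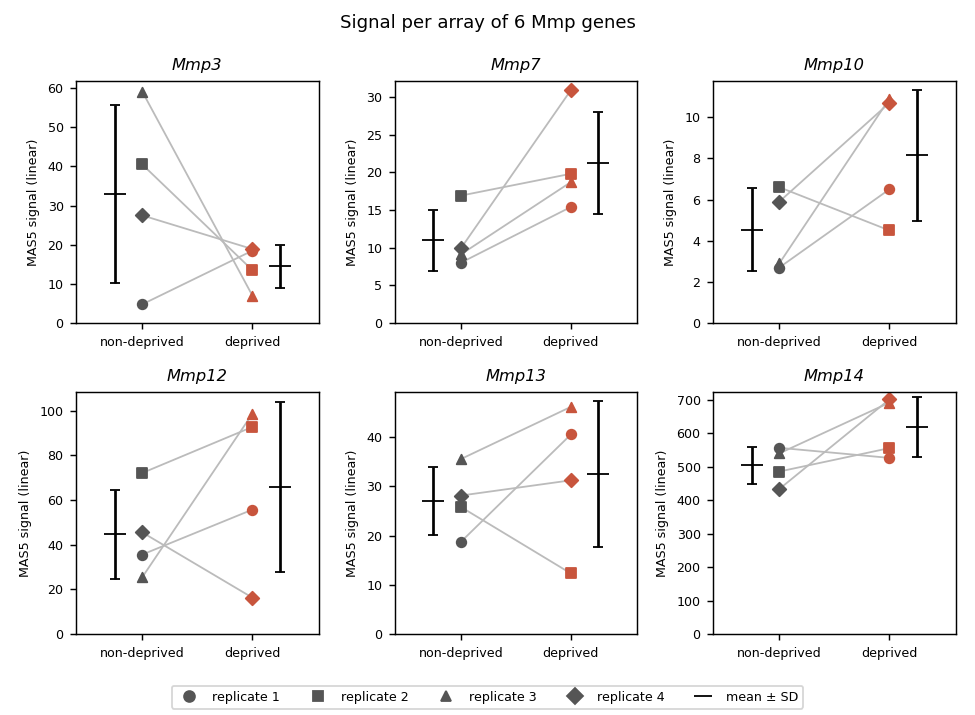
Linear signal per array of the 5 Mmp genes whose promoters hold the AP-1 letters and of Mmp14, which passed the filter; grey lines join samples of the same replicate number, and bars are mean ± SD, n = 4. The first 5 lie between 2.70 and 98.6, below the filter signal of about 110, with overlapping groups, and Mmp14 lies between 434 and 702.

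The inhibitors Timp1 to Timp3 all passed the filter. Timp1, which is induced by injury and activity in other settings, had signals of 938, 1010.2, 859.6 and 476 in non-deprived replicates 1 to 4 and 839.6, 445, 934 and 622 in deprived replicates 1 to 4. Non-deprived replicate 4 and deprived replicate 2 were low and the other arrays overlapped, with -0.20 ± 0.27 (SE; limma unadjusted p = 0.462, adjusted p = 0.995). A dimmer probe set of Timp1, below the filter, had 0.57. Timp2, which both inhibits metalloproteases and helps Mmp14 activate Mmp2, had 1187, 842, 991 and 1119 (non-deprived) and 1369, 1171, 1348 and 1011 (deprived, both in replicate order). Deprived arrays were higher in 3 of 4 pairs, with 0.24 ± 0.16 (SE; limma unadjusted p = 0.147, adjusted p = 0.995). Dimmer probe sets of Timp2, below the filter, had -0.13 and -0.05. Timp3, the inhibitor bound to the matrix, had 594, 1214, 734 and 437 (non-deprived) and 678, 1201, 710.3 and 1159.8 (deprived, both in replicate order). Its values fell into low and high arrays in both groups, and the difference of 0.38 ± 0.29 (SE; limma unadjusted p = 0.222, adjusted p = 0.995) was uneven, at 1.38 in the pair of replicate 4 and -0.05 in the lowest pair.

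Genes whose proteins work with these families were taken as 4 lists, in which limma called 0 genes after adjustment. Of the other basement membrane and matrix glycoproteins 14 were kept, with 10 above 0 and a median of 0.04. At an unadjusted p under 0.05 in limma 3 of 14 were higher, against 1.45% of all kept probe sets, and 0 lower, against 1.22%. These were Matn2, a matrilin that links matrix fibres, at 221 ± 26.5 and 339 ± 53.0, and the fibulins Fbln1, at 439.6 ± 39.2 and 595 ± 31.6, and Fbln2, at 151 ± 20.5 and 224 ± 33.8 (non-deprived and deprived, SD, n = 4). Each had all deprived arrays above all non-deprived ones (1.23% of all kept probe sets did), with log2 differences of 0.58, 0.43 and 0.52. With the replicate block 3 were higher, against 3.38%, and 1 lower, against 3.65%. The lower one was Sparc, a collagen-binding glycoprotein, at -0.29 (limma unadjusted p = 0.201 without the block and 0.0324 with it, adjusted p = 0.703 with it). The basement membrane proteoglycan agrin (Agrn) had 0.04, the laminin receptor dystroglycan (Dag1) 0.00 and fibronectin (Fn1) 0.04.

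Adam and Adamts proteases with their partners had 5 of 7 kept genes above 0 and a median of 0.09, the smallest p belonging to Adam15 at 0.30 and Adam19 at -0.18. Enzymes and chaperones of collagen synthesis had 7 of 10 above 0 and a median of 0.07. In that list P4ha1, the prolyl hydroxylase that stabilises the collagen helix, had -0.46 (limma unadjusted p = 0.0613, adjusted p = 0.995; with the replicate block unadjusted p = 0.0431, adjusted p = 0.703), and P4hb had -0.29. Integrin adaptors and partners had 13 of 18 above 0 and a median of 0.05, the smallest p belonging to paxillin (Pxn) at 0.21 and Src at -0.50. These 3 lists had 0 genes at an unadjusted p under 0.05 in limma without the block. Over all kept probe sets 1.45% were higher and 1.22% lower. With the block P4ha1 alone was under 0.05, as lower, against 3.65% of all kept probe sets.

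Cell types that make these proteins were set beside the results. Markers of meningeal fibroblasts, a main source of fibrillar and type VI collagen, passed the filter in 6 of 10 cases and had 5 of these 6 above 0 and a median of 0.32, with Fmod at 105 ± 103 and 251 ± 78.0 and Igf2 at 1624 ± 349 and 2176 ± 332 (non-deprived and deprived, SD, n = 4). These were the 2 of 6 higher at an unadjusted p under 0.05 in limma, against 1.45% of all kept probe sets. With the replicate block there were 3, against 3.38%, the added one being the defining fibroblast gene Dcn, at 349 ± 75.4 and 464 ± 78.5, with 0.40 (limma unadjusted p = 0.0536 without the block and 0.0359 with it). Fmod had a non-deprived mean under the filter on the log2 scale and passed through its deprived values. Its part in these calls, in the 5 of 6 above 0 and in the median of 0.32 is no support. The summed signal of the fibroblast markers was 7943 to 14302 in non-deprived and 7810 to 15207 in deprived arrays. Most of it was Ptgds. Mural cell markers had 5 of 7 above 0 and a median of 0.09, with sums of 1683 to 2081 and 2058 to 2143. Of these Anpep, at 112 ± 55.4 and 175 ± 12.8, had 0.68 (limma unadjusted p = 0.0454, and 0.0345 with the block). On the log2 scale its non-deprived mean (6.89) was under the filter and its deprived mean (7.57) above it. Anpep thus passed through its deprived values, and its call is no support. Endothelial markers had 5 of 10 above 0 and a median of 0.03, with sums of 3630 to 4035 and 3151 to 4320. With the block the tight-junction gene Cldn5, at -0.30, was lower (limma unadjusted p = 0.163 without it and 0.0304 with it). That is 1 of 10 kept endothelial markers, against 3.65% of all kept probe sets. The share of these cell types in the collagen and laminin values was not tested.

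The other lists were close to 0 or below it. Astrocyte markers had 2 of 6 above 0 and a median of -0.07 (sums 14465 to 19787 and 14514 to 18532). With the block Gja1, at 0.23, and S100b, at -0.29, had limma unadjusted p = 0.0482 and 0.0381 (0.336 and 0.114 without it). Over all kept probe sets 3.38% were higher and 3.65% lower at an unadjusted p under 0.05 with the block. Oligodendrocyte markers had 1 of 5 and -0.04 (16901 to 23850 and 19644 to 20601), and neuronal markers 2 of 7 and -0.05 (37934 to 43938 and 35848 to 42681). Blood markers had 1 of 2 above 0 (7940 to 14628 and 8058 to 13364), and choroid plexus markers had none kept (123 to 218 and 163 to 248). Among control probes the signal ratio of the 3' to the 5' end of actin mRNA averaged 1.39 ± 0.179 (non-deprived) and 1.64 ± 0.239 (deprived, SD, n = 4; exact permutation test, p = 0.171). That of Gapdh averaged 0.898 ± 0.0543 and 0.842 ± 0.0345 (SD, n = 4; exact permutation test, p = 0.143). Adding the actin ratio to the fit, the median of the 36 genes was 0.17 and that of the collagens 0.36, and with the Gapdh ratio they were 0.13 and 0.12.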

How the data were processed

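The authors deposited 1 signal per probe set and array, an intensity on a linear scale, computed with MAS5 per the submitters' processing notes; its version and parameters are not stated there. Total RNA, about 10 µg per sample, was labelled with biotin for 1-colour arrays, per the labels' protocols. Precision is limited by the number of arrays.

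Each of 8 arrays was rescaled to a common 2% trimmed mean, 66 control probe sets were dropped, and values were transformed to log2(signal + 15.3), the constant being the 10th percentile of signals. Probe sets whose mean lay above the 40th percentile were kept. Of 12422 probe sets, 10833 had 1 gene symbol, 396 several and 1193 none, and 10817 were matched by Entrez identifier to the GRCm38.p6 gene table for current symbols. The deprived against non-deprived contrast was fitted in R 4.3.3 by limma 3.58.1, using lmFit and a trended eBayes. Its two-sided p-values were adjusted by Benjamini-Hochberg over the 7453 kept probe sets, at a threshold of 0.05. The fit was tested on simulated data. Figures used matplotlib 3.10.9 in Python 3.11.15.

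Members and lists were chosen with earlier results of these data known. Values in every sample are given for members at an unadjusted p under 0.05 or with separate groups, for the 2 of each family with the smallest p, for 16 genes named whatever their result, and for Col5a1 and Mmp3, Mmp12 and Mmp13, picked after their values were seen. Of each pathway list the 2 genes with the smallest p are named; Fbln2, Sparc, Agrn, Dag1, Fn1 and the marker genes were picked later. Deviations from group means correlated at 0.16 to 0.42 between same-numbered samples, all above the limit of 0.1 for pairing, and -0.27 to 0.12 between others, so the block is given where it changes a call. Non-deprived replicate 3 with deprived replicate 4, at 0.12, also passed that limit. All SEs, and p-values given without the block, leave the pairing out. For Col5a1 the SE was 0.20 without the block and 0.11 with it. Alternatives were other scalings, pseudocounts, filters, blocks, weights, covariates, probe sets and each sample left out.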

Additional observations from a re-analysis of the deposited data

Results flagged for a closer look

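Over both groups of all 76 genes, 152 groups of 4 arrays, 4 held an array set apart from its neighbours, and chance gives about 1 in 20 such groups (7.6 here). Divided by the whole range of its group in log2(signal + 15.3), the gap to the next array was 0.88 for Col18a1 in deprived replicate 1 (signal 263, high) and 0.882 for Itga7 in deprived replicate 4 (71.7, low). Among genes below the filter it was 0.871 for Itga8 in deprived replicate 4 (63.7, high) and 0.845 for Mmp24 in non-deprived replicate 4 (12.4, high).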

How the results depend on the processing

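Limma called 0 of the 36 kept genes after adjustment, and 0 lower at an unadjusted p under 0.05, in all 21 alternatives. The number higher at an unadjusted p under 0.05, 3 as reported, was 6 with the replicate number as a block, 8 with it as a random block, 1 after quantile or cyclic loess scaling, 5 with no filter, 1 with a filter at the 60th percentile, 6 without the intensity trend and 0 with the Gapdh ratio as a covariate. With 1 sample left out it was 0 to 4. Over all kept probe sets 1.45% were higher in the reported fit and 3.38% with the replicate number as a block. For the other settings no share over all is given, so their counts are no result about these genes. The number of genes with all deprived arrays above the others, 3 as reported, was 0 after quantile or cyclic loess scaling, 5 with no filter and 0 with the 60th-percentile filter. With 1 sample left out it was 3 to 7, and the number with all deprived arrays below was 0 to 1 (1 without non-deprived replicate 1, deprived replicate 3 or deprived replicate 4). Leaving out an array can only keep or raise these counts. Over all kept probe sets 1.23% had deprived above in the reported fit, and no share is given for the other settings. The replicate block changed no other count over the members; the calls it changed in the pathway and marker lists stand beside them.

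The median of Mmp genes was 0.24 with no filter, and that of laminins -0.13 with the 60th-percentile filter, which leaves 1 of them. Of 23 named genes in the fit 13 kept their sign in every alternative and 10 did not. Itgb1 was 0.0096 after cyclic loess scaling, 0.11 with array weights, 0.20 with the Gapdh ratio and 0.0011 as the mean of its probe sets. With array weights Col4a1 was 0.058 and Lamc1 0.043. With the actin ratio Itgav was -0.12, Lamb1 -0.046 and Mmp17 0.035. Col1a2 was -0.057 with the Gapdh ratio, and Itgb5 was 0.076 as the mean of its probe sets. With 1 sample left out the ranges were -0.060 to 0.30 for Col1a1, -0.18 to 0.070 for Col4a1, -0.0046 to 0.50 for Itgax, -0.22 to 0.21 for Itgb1, -0.050 to 0.25 for Lamb1 and -0.41 to 0.24 for Lamc1. The causes were not tested. Signals below about 110 are near background, where small differences could not be measured.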
